A study of Homo sapiens with 4 samples.

Results

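HEK293T cells, a human embryonic kidney line, were transfected with an expression vector for SF3B1-K700E, in which glutamate replaces a lysine of the HEAT repeats, and compared with HEK293T cells given the vector for wild-type SF3B1. The 2 libraries were taken by their labels from a series of 4, and the libraries of the mutants R625H and K666T are given beside them where they show how far a value of K700E stands from other mutants. The labels give 2000 ng of plasmid for K700E, 1000 ng for R625H and 1000 ng for K666T, while that for the wild-type vector (WT) is not stated in the labels. All 4 cultures were the same cell line, received Lipofectamine 2000, and kept their own SF3B1 gene under the vector, so each mutant is a transient addition to an unedited cell. Mutation and plasmid amount cannot be told apart in the K700E library. Each vector had 1 library, so no difference below was checked by replicates, and intervals stand for counting error alone.

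SF3B1 is the largest subunit of SF3b, the part of the U2 small nuclear ribonucleoprotein (snRNP) that holds the branch point adenosine of an intron while the acceptor, the AG at the intron's end, is chosen. Mutations in its HEAT repeats recur in myelodysplastic syndromes, chronic lymphocytic leukaemia and uveal melanoma, and K700E is the most common of them in blood cancers. Such mutants are known for using cryptic acceptors a short way upstream of the usual one, which adds intron bases to the messenger RNA and can shift the reading frame.

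Reads assigned to genes came to 83025588 in K700E and 90939945 in WT, with 82254731 in R625H and 86394759 in K666T. Uniquely mapped reads across junctions came to 71055491 in K700E and 71945311 in WT, spread over 499605 junctions in K700E and 434197 in WT. Unmapped pairs made up 15.2% of the total in K700E, 16.5% in R625H, 17.3% in K666T and 8.84% in WT. SF3B1 itself had 512.2 CPM (counts scaled to a library's gene reads) in K700E, 517.3 in R625H, 520.9 in K666T and 505.9 in WT, and these levels do not show which vector a culture received. Of 10 genes known in HEK293T cells, 9 were measured, with a summed level of 1490 CPM in K700E and 1554 CPM in WT. Of the markers of blood, endothelium, fibroblasts, liver and erythroid cells, 10 were in the data and 2 were measured. The 10 had a summed level of 28.64 CPM in K700E and 26.73 CPM in WT.

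Acceptor choice was measured as the upstream share, the percent of a donor's reads to 2 neighbouring acceptors that landed on the upstream one. K700E used upstream acceptors more often than WT at 81 pairs of acceptors 10 to 30 nt apart, in 81 genes, and less often at 23 pairs. The denominator is 13509 pairs with at least 20 reads in each library, so 0.6% of all pairs rose and 0.17% fell. A pair was called when Fisher's exact test on its reads gave a Benjamini-Hochberg adjusted p under 0.05 and the share differed by at least 10 percentage points; "rose" and "fell" mean such a call, which compares 2 libraries and not 2 conditions. At 63 of the 81 rises the upstream acceptor was absent from the GENCODE 29 annotation, against 11872 of the 13509 tested pairs. Without the limit on size, 323 pairs were higher and 46 lower in K700E at an adjusted p under 0.05, and 242 of those higher differed by less than 10 points.

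How much a pair says of its gene depends on its reads. At 15 of the 81 rises and 12 of the 23 falls, the pair carried less than 10% of the reads of its gene's most-read annotated junction, against 465 (3.44%) of the tested pairs. All 15 of those rises had no upstream read in WT. At the other 66 rises and 11 falls the pair lay on a well-read junction, and 18 of those 66 rises had no upstream read in WT. The 66 rises had a median upstream share of 18.3% in K700E, 20.6% in R625H, 16.7% in K666T and 1.42% in WT, and the median K700E difference from WT was 16.1 points.

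**Figure D1:**
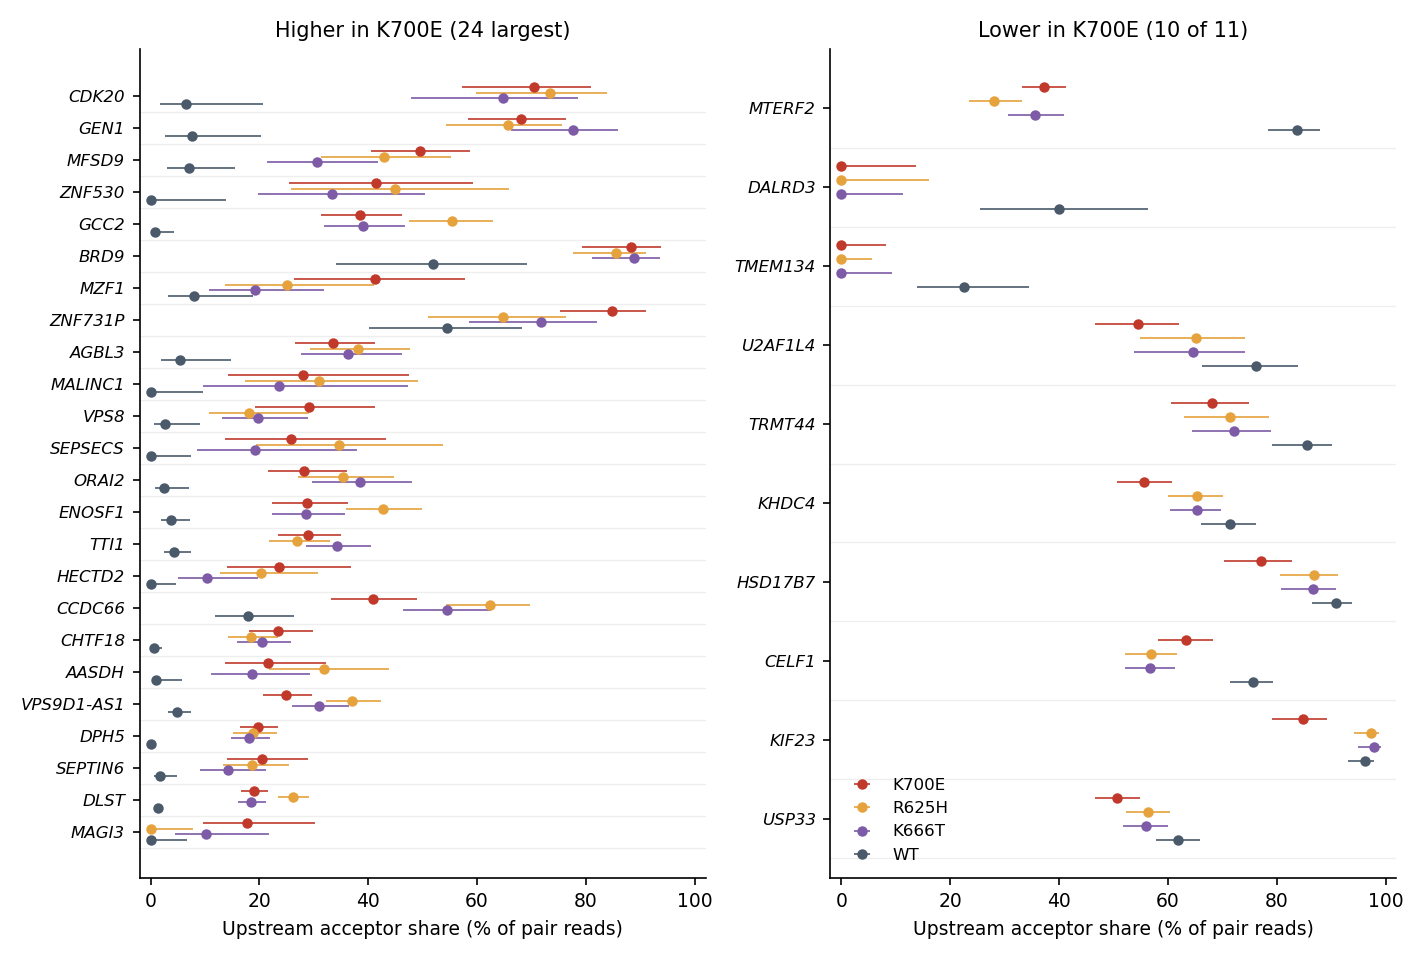
Upstream acceptor share in percent (x axis, with 95% Wilson intervals) at the 24 largest rises and 10 of the 11 falls on well-read junctions (y axis, 1 gene a line), with 1 point for each of the 4 libraries. At CDK20, at the head of the rises, K700E stands at 70.4% and WT at 6.45%, and R625H and K666T stand with K700E; at KIF23, among the falls, K700E stands apart from the other 3 libraries.

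The sequences around a few of these acceptor pairs show what K700E chose between. Each stretch below ends 10 bases into the exon of the downstream acceptor and starts 40 bases before the upstream one ends, and the capitals mark the AG of the upstream and then the downstream acceptor. They were read from GENCODE 29 transcripts with an exon that spans the whole stretch, on GRCh38, 5′ to 3′ on the gene's strand. Whether such a transcript keeps an intron there, or has the stretch inside an ordinary exon, was not checked. CDK20, GCC2, CBY1, DLG1 and TMEM14C rose in K700E and are shown for their large or deeply read change; DDX55 is shown because its upstream acceptor was read in K700E alone; KIF23 and U2AF1L4 fell.
CDK20, chr9:87970621-87970685, minus strand: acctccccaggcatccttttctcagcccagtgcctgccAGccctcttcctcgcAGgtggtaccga
GCC2, chr2:108486459-108486520, plus strand: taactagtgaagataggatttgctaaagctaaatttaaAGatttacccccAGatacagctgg
CBY1, chr22:38670830-38670893, plus strand: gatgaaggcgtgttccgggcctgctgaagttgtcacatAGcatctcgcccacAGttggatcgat
DLG1, chr3:197065439-197065504, minus strand: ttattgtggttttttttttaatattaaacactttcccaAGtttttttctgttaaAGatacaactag
TMEM14C, chr6:10724516-10724579, plus strand: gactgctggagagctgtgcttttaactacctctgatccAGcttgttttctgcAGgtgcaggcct
DDX55, chr12:123609943-123610012, plus strand: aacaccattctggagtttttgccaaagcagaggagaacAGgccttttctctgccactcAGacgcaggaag
KIF23, chr15:69444750-69444820, plus strand: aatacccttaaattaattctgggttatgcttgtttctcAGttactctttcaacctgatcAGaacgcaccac
U2AF1L4, chr19:35745178-35745252, minus strand: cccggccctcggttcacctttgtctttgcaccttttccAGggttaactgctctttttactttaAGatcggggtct

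Such a transcript covered 3018 of the tested pairs, and 3016 of them (99.9%) had AG at both acceptors, which also checks the hg19 positions against the sequence. Among the 15 covered rises on well-read junctions, the 20 bases before the upstream AG held a median of 60% pyrimidines, and those before the downstream AG 75%. Over all 3016 pairs the same medians were 60% and 70%. Adenines made up a median of 25% before the upstream AG and 15% before the downstream AG at those 15 rises, and 20% and 15% over all pairs. GCC2, with 40% adenines before its upstream AG, and DLG1, with 40%, lay at the high end, and CDK20, with 10%, at the low end. Composition before the AG thus varied widely among the rises, and with 15 pairs it is given as a description only.

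Of the 12 largest rises, 4 lay on well-read junctions. CDK20, a cyclin-dependent kinase, used an acceptor 15 nt upstream (hg19 chromosome 9, 90585561) in 38 of 54 reads in K700E, 70.4%, against 2 of 31 reads in WT, 6.45%. The share was 73.5% in R625H and 64.7% in K666T, and the Wilson intervals of K700E (57.2 to 80.9%) and WT (1.79 to 20.7%) did not meet (Fisher's exact test, adjusted p = 5.41e-07). GEN1, a resolvase of Holliday junctions, had 68 of 100 reads on the upstream acceptor in K700E, 68.0%, and 3 of 39 in WT, 7.69%. MFSD9, a predicted membrane transporter, had 55 of 111 in K700E, 49.5%, and 5 of 71 in WT, 7.04%. In each of these 3 genes the other mutants stood far above WT too, at 65.7% in R625H and 77.6% in K666T for GEN1 and at 42.9% and 30.7% for MFSD9. ZNF530, a zinc-finger gene, had 12 of 29 reads in K700E, 41.4%, and 0 of 24 in WT, which allows a share of up to 12.5%. Reads at ZNF530 were few, and its adjusted p (Fisher's exact test) was 0.0101.

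The next rises, named after their values were seen, include deeper ones. GCC2, a golgin of the trans-Golgi, went through an acceptor 12 nt upstream (hg19 chromosome 2, 109102954) in 62 of 161 reads in K700E, 38.5%, with 55.3% in R625H, 39.1% in K666T and 1 of 128 reads in WT, 0.78%. The added 12 nt keep the frame. CBY1, which encodes Chibby, an antagonist of beta-catenin at the ciliary base, had 106 of 640 reads in K700E, 16.6% (13.9 to 19.6), against 3 of 770 in WT, 0.39% (0.13 to 1.14), at 14 nt, which shifts the frame. CHTF18, part of an alternative clamp loader of DNA replication, had 46 of 196 reads in K700E, 23.5%, and 3 of 432 in WT, 0.69%. NDRG3, a member of the N-myc downstream-regulated family, had 70 of 455 reads in K700E, 15.4%, and 0 of 483 in WT, which allows up to 0.621%. At these 4 genes WT was at or under 1% at a depth of 128 reads or more, and K700E was at 15% or more.

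Genes of transcription, cell division and signalling were among the other rises on well-read junctions. CDK8, the kinase of the Mediator complex, stood at 10.6% in K700E and at 0 of 215 reads in WT, up to 1.4%. MECOM, the zinc-finger transcription factor EVI1, stood at 16.3% in K700E and at 0 of 91 reads in WT, up to 3.3%. NFYA, a subunit of the CCAAT-binding factor, had 17.2% in K700E and 0.65% in WT. SMURF2, a ubiquitin ligase of the TGF-beta pathway, had 17.4% in K700E and 0.75% in WT. BUB1B, the spindle checkpoint protein BubR1, had 16.5% in K700E, 25.4% in R625H, 20.2% in K666T and 6.24% in WT. ERCC3, a helicase of transcription factor IIH, had 15% in K700E and 3.63% in WT, and DLG1, a scaffold of cell junctions, 19% in K700E and 3.23% in WT. PRPF38A, itself a spliceosome protein, had 114 of 696 reads on the upstream acceptor in K700E, 16.4%, and 32 of 788 in WT, 4.06%. The deepest rise was that of SERBP1, an RNA-binding protein of the ribosome, with 7305 of 11532 reads in K700E, 63.3%, and 6071 of 11534 in WT, 52.6%. All of these genes except SERBP1 kept the downstream acceptor as the main one in K700E, and SERBP1 used the upstream one for more than 50% of reads in both libraries.

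Genes reported for SF3B1-mutant cells elsewhere were read as a list of 44, of which 39 had a tested pair. Of their 111 pairs, 16 rose (14.4%, against 0.6% of all pairs) and none fell, at a median difference of 0.189 points over the list and 0 over all pairs. Since the list is made of genes known for this change, its count describes these libraries and says nothing of other genes. Among the 16 rises, the highest K700E shares were those of BRD9, of the chromatin-remodelling SWI/SNF family, at 88.3% in K700E and 51.9% in WT, and of SERBP1, at 63.4% in K700E and 52.6% in WT. The BRD9 pair was thinly read, with 68 of 77 reads upstream in K700E and 14 of 27 in WT (33.99 to 69.26%). It carried 10.52% of the reads of the gene's most-read junction. GCC2 is one of the 16 as well. ENOSF1, TTI1 and ORAI2 had 28.8%, 28.9% and 28.3% in K700E and 3.72%, 4.33% and 2.5% in WT. TMEM14C, DYNLL1, MAP3K7, SEPTIN6 and DPH5 had 23.4%, 22.1%, 21.9%, 20.5% and 19.7% in K700E and 6.65%, 7.6%, 9.06%, 1.68% and 0.14% in WT. DLST, ZDHHC16, TPP2, KANSL3 and PPP2R5A were the other rises, among them TPP2, a peptidase, with 32 of 183 reads in K700E, 17.5%, and 3 of 257 in WT, 1.17%, and KANSL3, a subunit of a histone acetyltransferase complex, with 35 of 242 in K700E, 14.5%, and 1 of 217 in WT, 0.46%.

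The other 8 of the 12 largest rises rest on pairs with 1.17 to 9.41% of the reads of the gene's most-read junction, and none had an upstream read in WT. RIDA, an imine deaminase, had 222 of 277 reads upstream in K700E, 80.1%, against 0 of 54 in WT, and R625H and K666T were also at 0. ATP5MC1, a subunit of ATP synthase, had 78.8% in K700E and 84.6% in R625H, and NPM1, the nucleolar protein nucleophosmin, 77.2% in K700E and 78.4% in R625H; both were at 0 in K666T and WT. UBE2S, a ubiquitin-conjugating enzyme, had 65.8% in K700E, SPCS2, a subunit of signal peptidase, 49.2%, and CNBP, a nucleic-acid binding protein, 39.2%, with reads in R625H too and none in K666T or WT. NUP88, a nucleoporin, had 60% and ZNHIT3, a zinc-finger protein, 57.1% in K700E, with reads in K666T and none in R625H or WT. The upstream acceptors of these low pairs thus came and went between the mutant libraries. Over the 15 rises of this kind, 5 were at 0 in R625H and 9 in K666T, against 3 and 2 of the 66 rises on well-read junctions. NPM1 has processed copies elsewhere in the genome, and 1 of them, NPM1P6, had 54 reads in K700E, 97 in R625H, 119 in K666T and 1210 in WT, so where reads of this gene and its copies were placed is uncertain.

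Falls were fewer, and their largest were of the same low kind. Of the 6 largest, 5 were at 0 in K700E and on pairs under 10% of the top junction. PSMC1, a proteasome ATPase, had 0 of 32 reads in K700E and 68 of 81 in WT, 84%, and R625H and K666T were at 0 as well. TREX2, an exonuclease gene at a site it shares with another gene, had 0 in K700E, 38.04% in R625H, 37.61% in K666T and 57.6% in WT. CKAP5, a microtubule polymerase, had 0 of 20 reads in K700E, 0 of 16 in R625H and 0 of 21 in K666T, against 56.5% in WT. RPS3, a ribosomal protein with processed copies, had 0 in K700E, 57.53% in R625H, 49.18% in K666T and 53.8% in WT. SUPT20H, a subunit of the SAGA complex, had 0 in K700E and 0 of 46 reads in R625H, against 49.1% in WT. The sixth, MTERF2, a mitochondrial transcription factor family member, lay on a well-read noncoding exon and had 209 of 562 reads upstream in K700E, 37.2%, with 28.1% in R625H, 35.6% in K666T and 186 of 222 in WT, 83.8% (Fisher's exact test, adjusted p = 7.31e-31).

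The 11 falls on well-read junctions mostly moved use between annotated acceptors, 9 of them having an annotated upstream acceptor. Their median upstream share was 55.7% in K700E, 65.2% in R625H, 64.6% in K666T and 76.1% in WT. KIF23, a kinesin of the cell division midzone, had 168 of 198 reads on the upstream acceptor in K700E, 84.8% (79.2 to 89.2), against 254 of 264 in WT, 96.2% (93.2 to 97.9), at 21 nt (Fisher's exact test, adjusted p = 0.00136). The splicing factors CELF1 and U2AF1L4, a paralogue of the small U2AF subunit that reads the acceptor AG, had 63.4% and 54.5% in K700E and 75.6% and 76.1% in WT. HSD17B7, an enzyme of cholesterol synthesis, had 77.2% in K700E and 90.9% in WT, and TRMT44, a tRNA methyltransferase, 68.2% in K700E and 85.5% in WT. KHDC4 and USP33 also fell between annotated acceptors, at 55.7% and 50.7% in K700E and 71.5% and 62% in WT, and DALRD3 and TMEM134 were at 0 in K700E, R625H and K666T and at 40% and 22.6% in WT. In KIF23 the other mutants lay near WT, at 97.3% in R625H and 98% in K666T, and in CELF1 they lay below K700E, at 57% in R625H and 56.8% in K666T.

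The acceptors of rises lay closer together than those of the tested pairs. Of the 66 rises on well-read junctions, 62 (93.9%) had acceptors 10 to 24 nt apart, against 71.3% of the tested pairs on such junctions, with a median of 17 nt against 21 nt, and the 11 falls had a median of 23 nt. By distance over all tested pairs, 1.46% rose at 10 to 14 nt, 0.947% at 15 to 19 nt, 0.499% at 20 to 24 nt and 0.128% at 25 to 30 nt. Over the same steps 0.456%, 0.0512%, 0.108% and 0.282% fell. At 15 to 19 nt 37 pairs rose and 2 fell, while at 25 to 30 nt 5 rose and 11 fell.

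Reads were also summed over the 11872 pairs with an unannotated upstream acceptor. Those acceptors took 0.229% of reads in K700E (0.227 to 0.232), 0.307% in R625H, 0.218% in K666T and 0.12% in WT (0.118 to 0.121), a ratio of K700E over WT of 1.92. At 10 to 14 nt this ratio was 2.59 (0.724% in K700E, 0.28% in WT), at 15 to 19 nt 2.35, at 20 to 24 nt 1.83 and at 25 to 30 nt 1.3. Pairs set closer or farther apart were measured the same way and gave ratios of 1.03 at 3 to 9 nt, 1.25 at 31 to 50 nt and 1.42 at 51 to 100 nt. K700E was thus above WT in every distance class from 10 nt upward, by more than 2-fold from 10 to 19 nt. At 3 to 9 nt the intervals of K700E (4.29 to 4.45%) and WT (4.15 to 4.31%) overlapped, with R625H at 3.81% and K666T at 4.41%.

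**Figure D2:**
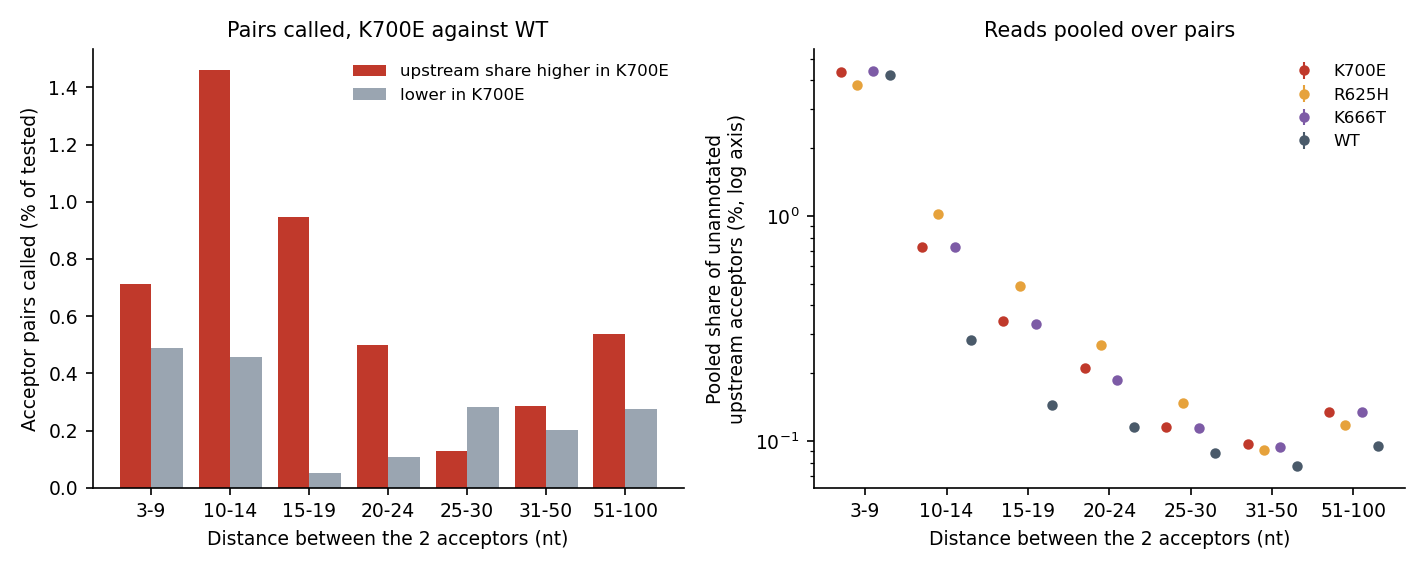
By distance between the acceptors in nt (x axis), the left panel plots the percent of tested pairs called higher (red bars) or lower (grey bars) in K700E than in WT, and the right panel the pooled share of unannotated upstream acceptors in percent (log axis, bars smaller than the points are 95% Wilson intervals) in each of the 4 libraries. Calls upward are most frequent at 10 to 14 nt, where the pooled share is 0.724% in K700E and 0.28% in WT, and the 4 libraries lie close together at 3 to 9 nt.

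Other splice site classes did not lean upstream to the same degree in the balance of rises and falls. Of 2249 acceptor pairs 3 to 9 nt apart, 16 rose (0.711%) and 11 fell (0.489%). Of 14253 pairs 31 to 100 nt apart, 59 rose (0.414%) and 34 fell (0.239%), with 0.536% rising at 51 to 100 nt. The share that rose was thus higher at 3 to 9 nt than the 0.6% at 10 to 30 nt. Of 4013 donor pairs 10 to 30 nt apart, sites first bound by U1 and not U2 snRNP, 9 rose (0.224%) and 11 fell (0.274%). Rises made up 77.9% of calls at acceptors 10 to 30 nt apart, 59.3% at 3 to 9 nt, 63.4% at 31 to 100 nt and 45% at donors. The difference between these percentages was not tested. Without limits on annotation, falls outnumbered rises at 3 to 9 nt (136 rises, 143 falls) and at 31 to 100 nt (332 rises, 350 falls), and rises made up 59.1% of calls at 10 to 30 nt.

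Of the 60 rises on well-read junctions at coding exons, 32 (53.3%) had a distance that is not a multiple of 3 and so shifts the frame, against 60.3% of tested coding pairs. Over all 81 rises, 40 genes had such a frame-shifting coding rise, and their median log2 ratio of K700E over WT in gene level was -0.07, with 26 of 40 (65%) below 0. The 29 measured genes with an in-frame coding rise had a median of -0.05, with 55.2% below 0, and the 6224 genes with tested pairs and no call had a median of 0.01, with 47.6% below 0. No gene of the frame-shifting rises was 2-fold lower; PPP2R5A, which directs the phosphatase PP2A to its targets, was the lowest at -0.66, with DPH5, of diphthamide synthesis, at -0.45 and MAP3K7, the kinase TAK1, at -0.35.

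K700E was also set directly against the libraries of the other mutants. Against R625H, 20 of 13579 pairs were higher in K700E (0.147%) and 53 lower (0.39%). Against K666T, 16 of 13617 were higher in K700E (0.118%) and 19 lower (0.14%), and at a limit of 20 points 12 were higher and 10 lower. At the 66 rises on well-read junctions, K700E lay below R625H in share at 39 and below K666T at 25 of the 65 read there; since these pairs were chosen for their K700E share, this is a description. A pair without a call between mutants may still differ.

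On well-read junctions, K700E differed from 1 or both mutants as well as from WT at the following genes, picked after their values were seen. ERFE, the hormone erythroferrone, which restrains hepcidin, had 17 of 113 reads on an in-frame acceptor 12 nt upstream in K700E, 15% (9.61 to 22.8), against 0 of 93 in R625H, 2 of 114 in K666T and 0 of 86 in WT, which allows up to 3.49% in WT. The K700E difference was 15.04 points from R625H and 13.29 from K666T (Fisher's exact test, adjusted p = 0.00368 and 0.0478). DDX55, a DEAD-box RNA helicase, had 16 of 95 reads upstream in K700E, 16.8%, and 0 of 74 in R625H, 0 of 78 in K666T and 0 of 62 in WT, which allow up to 4.05%, 3.85% and 4.84%. KIF23 was lower in K700E than in both, at a difference of -12.47 points from R625H and -13.12 points from K666T. HYI, a putative hydroxypyruvate isomerase, was higher in K700E than in R625H by 14.31 points. The reverse was seen in TMEM14C, a mitochondrial protein of heme synthesis, where K700E rose over WT but lay lower than both, by -12.37 points from R625H and -11.29 points from K666T. CCDC66, a centrosome and cilium protein, had 40.8% in K700E, 62.3% in R625H and 17.9% in WT, a difference of -21.51 points from R625H. These genes are given for their values, and the largest differences between mutants, at low pairs, are in the closing section.

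Cassette exons were skipped more in K700E at more sites than they were included more. Of 83925 cassette exons tested with annotated ends, inclusion rose at 44 exons in 41 genes (0.0524%) and fell at 196 exons in 164 genes (0.234%). More exons fell than acceptor pairs rose by count, but as a share of sites tested the exons that fell were fewer, at 0.234% against 0.6% for the pairs. The exons that fell had a median inclusion of 68.3% in K700E, 78.9% in R625H, 76.9% in K666T and 87.1% in WT, with a median K700E difference of -14.9 points. The exons that rose had medians of 57.9% in K700E, 52% in R625H, 51.4% in K666T and 37.8% in WT, with a median K700E difference of 17.3 points. Exons used partly in WT leaned the same way as a whole: of 7227 exons with 10 to 90% inclusion in WT, 58.6% were lower in K700E, by a median of -1.41 points over all of them.

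**Figure D3:**
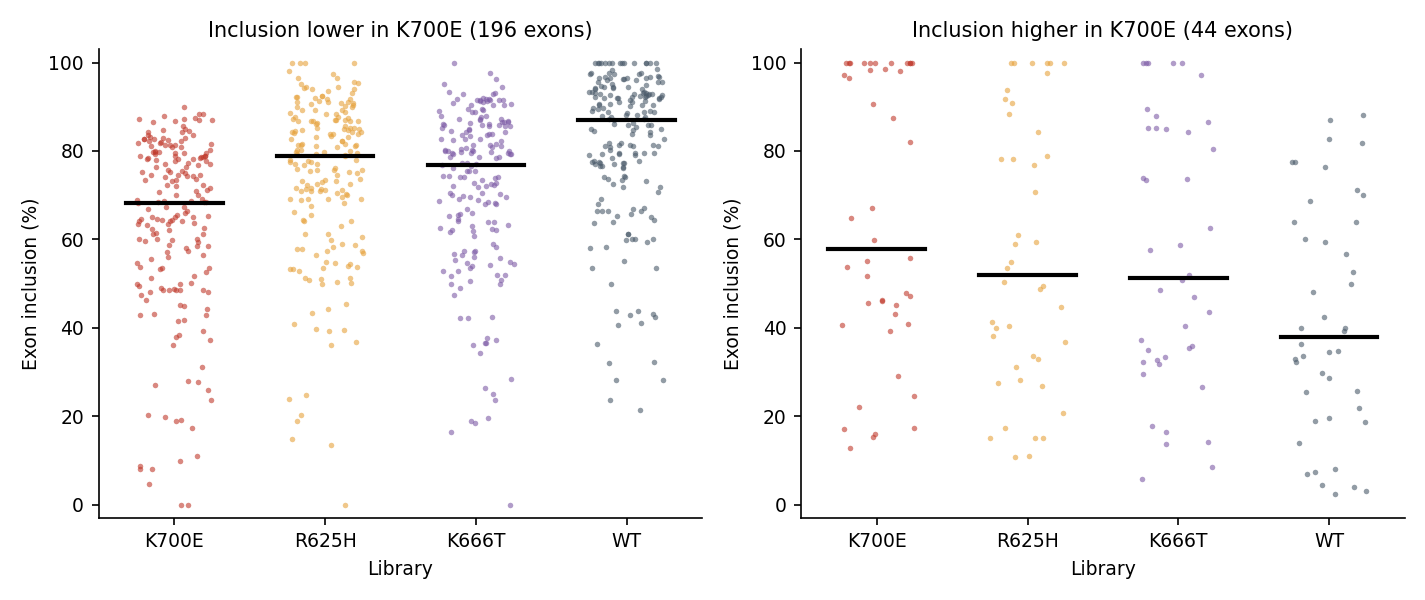
Inclusion in percent (y axis) of the 196 exons called lower and the 44 called higher in K700E than in WT, with 1 point an exon where at least 20 reads were present, in each of the 4 libraries (x axis); bars are medians. K700E medians are 68.3% and 57.9% and WT medians 87.1% and 37.8%, with the medians of R625H and K666T in between.

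The exons that fell had a median length of 131 nt, against 124 nt for those tested, and 66.3% of them had a length that is not a multiple of 3, against 61.9%. The 8 largest falls lay in HNRNPU, BZW1, APLP2 with a pair of overlapping exons, RPS3, CIZ1, EIF5 and RPL8. All 8 exons carried between 0.06 and 7.26% of the reads of their gene's top junction, and 6 had an inclusion junction unread in K700E or WT. They are thus minor products of abundant genes, such as that of HNRNPU, a nuclear RNA-binding protein, at 0 in K700E and 100% in WT, and that of EIF5, a translation initiation factor, at 27% in K700E and 70.7% in WT. RPL8 and RPS3 are ribosomal protein genes with processed copies and are uncertain.

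The next falls, named after their values were seen, were in exons carrying much of their gene's reads. DCAF16, which brings substrates to a cullin ubiquitin ligase, had 60.1% inclusion in K700E (54.4 to 65.6), 54.8% in R625H, 55.7% in K666T and 89.1% in WT (84.5 to 92.4), and all 3 mutants lay together (Fisher's exact test, adjusted p = 1.93e-11). DDB2, the damage-binding factor of nucleotide excision repair, had 55.5% in K700E, 68.8% in R625H, 61.9% in K666T and 80.2% in WT. HROB, a factor of homologous recombination, had 56.5% in K700E, 73.4% in R625H, 61.7% in K666T and 86% in WT. ACVR2A, an activin receptor, had 70.1% in K700E and 96.2% in WT, and FNIP1, the folliculin partner, 52.6% in K700E and 81% in WT. In C19orf12 the mutants parted: inclusion was 43% in K700E, 77.5% in R625H, 69.7% in K666T and 73.6% in WT. The values of R625H and K666T are set against the same WT library as those of K700E.

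Of the 8 largest rises in inclusion, 7 also lay on minor products: RPL7A, HSPA9, RPLP0, SNRNP48, DOT1L and HSP90AB1 were each at 100% in K700E and at 32.1 to 63.9% in WT, and MPST, a sulfurtransferase, was at 87.5% in K700E and 39.3% in WT. RPL7A and RPLP0 are ribosomal protein genes with processed copies. The eighth, MAGEA2B, a cancer-testis gene whose reads are uncertain because of near-identical copies, had 96.6% in K700E, 93.9% in R625H, 88% in K666T and 50% in WT. Among exons picked after their values were seen, COASY, of coenzyme A synthesis, was at 53.7% in K700E (49.4 to 57.9), 61% in R625H, 62.5% in K666T and 18.7% in WT (14.4 to 23.9). A 27-nt exon of NCOR1, a nuclear corepressor, had 55.8% in K700E, 50.5% in R625H, 47% in K666T and 29.8% in WT. ECT2, the exchange factor of cytokinesis, had 39.3% in K700E, 40.3% in R625H, 32.7% in K666T and 21.9% in WT. NT5C3A, a pyrimidine nucleotidase that is known to respond to interferon, had 59.9% in K700E and 39.9% in WT, with R625H at 41.3% and K666T at 34.9%, near WT. NT5C3A thus stood apart from COASY, NCOR1 and ECT2, where all 3 mutants were above WT.

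In gene levels K700E stood far above WT in the interferon-stimulated genes, whose products block viral entry, translation and replication. Levels were compared as the log2 ratio of CPM with a prior count of 10 and with no test. This was done for 14740 genes with at least 1 CPM in K700E or WT. A gene under 1 CPM in 1 of these libraries was thus measured only through the other, which favours genes that differ. In bulk RNA, more cells making a transcript and more of it per cell cannot be told apart. In all, 193 genes (1.31%) were at least 2-fold higher in K700E and 67 (0.455%) at least 2-fold lower. Among the 12758 protein-coding genes measured, 128 were 2-fold higher and 21 lower. At 16-fold, 22 genes of all types were higher and 2 lower.

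A list of 53 interferon-stimulated genes had 52 in the data and 48 measured. Of the 48, 46 were at least 2-fold higher in K700E than in WT and none lower, against 1.31% of all genes. Some, such as EPSTI1, were under 1 CPM in WT and passed the filter through K700E alone, so the count favours members high in K700E. The median log2 ratio of K700E over WT among the 48 was 3.23 and ran from 0.46 to 7.15, beside a median of 0 over all genes. Summed over the whole list, with no filter, levels were 6372 CPM in K700E, 1878 in R625H, 1567 in K666T and 874.8 in WT. Of the 48 measured, only IFITM2 (0.46), a restriction factor of viral entry, and ZC3HAV1 (0.66), a zinc-finger antiviral protein, were under 2-fold. The median log2 ratio of the list was 1.45 for R625H over WT and 1.10 for K666T over WT, and 1.84 for K700E over R625H and 2.12 for K700E over K666T. K700E was thus the highest library for the list, and its plasmid amount was the highest of those stated.

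**Figure D4:**
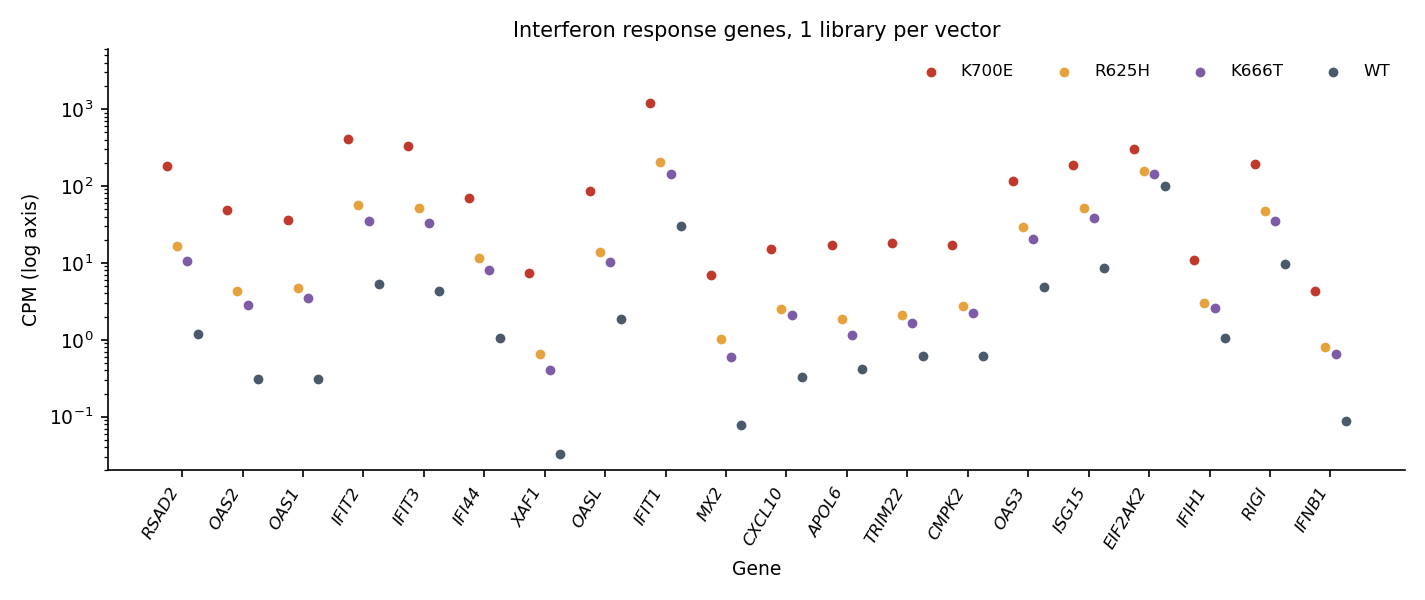
Levels in CPM (y axis, log scale) of interferon-stimulated genes and IFNB1 (x axis), 1 point for each of the 4 libraries. K700E is the highest library and WT the lowest for each gene shown, as for IFIT1 with 1192.3 CPM in K700E and 29.72 CPM in WT.

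The 15 genes annotated as protein-coding with the highest ratios all belong to this response; genes with no GENCODE 29 entry, and so no type, are not ranked here, among them ENSG00000161570, with 2048 reads in K700E and 39 in WT and a log2 ratio of 5.51. RSAD2, the antiviral enzyme viperin, had 184.3 CPM in K700E, 16.5 in R625H, 10.57 in K666T and 1.188 in WT, a log2 ratio of 7.15 (95% counting interval 6.88 to 7.41). The oligoadenylate synthetases, which make the activator of RNase L, came next with OAS2 at 48.23 CPM in K700E and 0.3079 in WT and OAS1 at 36.3 in K700E and 0.3079 in WT; OASL and OAS3 had log2 ratios of 5.47 and 4.54. The IFIT proteins, which bind foreign RNA ends, had log2 ratios of 6.22 in IFIT2, 6.21 in IFIT3 and 5.32 in IFIT1, the last with 98989 reads in K700E and 2703 in WT. IFI44, XAF1, MX2, CXCL10, APOL6, TRIM22 and CMPK2 had log2 ratios between 4.55 and 5.88. XAF1, an antagonist of inhibitors of apoptosis, had 609 reads in K700E and 3 in WT, so its ratio of 5.65 (4.87 to 6.43) leans on the prior count. MX2, a dynamin-like restriction factor, had 583 reads in K700E and 7 in WT.

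The genes above and below the response were measured too. IFNB1, which encodes interferon beta, had 362 reads in K700E, 67 in R625H, 57 in K666T and 8 in WT, a log2 ratio of 4.46, and CXCL10, a chemokine, 1266 reads in K700E and 30 in WT. Of 16 interferon, chemokine and cytokine genes on a list, 15 were found in the data by name. Of these, 5 were measured and 3 of them, IFNB1, CXCL10 and CXCL11, were 2-fold higher. These 3 were under 1 CPM in WT and passed the filter through K700E alone. Their count and the median log2 ratio of 3.77 among the 5 thus depend on the filter. Summed over the 15 genes found, with no filter, levels were 43.87 CPM in K700E, 22.02 in R625H, 20.73 in K666T and 12.14 in WT. Of 11 measured genes on a list of sensors of RNA and DNA and their adaptors, 3 were 2-fold higher, against 1.31% of all genes. The list's median was 0.23. These 3 are RNA sensors that interferon itself raises: RIGI at 4.29, IFIH1 (MDA5) at 3.23 and EIF2AK2 (PKR) at 1.59. The list does not hold every sensor. IFI16, a DNA sensor, and DHX58 (LGP2), an RNA sensor, are not on it and were also 2-fold higher in K700E than in WT. Both were under 1 CPM in WT and were measured only through K700E. RIGI had 193.2 CPM in K700E, 47.09 in R625H, 35.36 in K666T and 9.798 in WT. Of 13 genes of MHC class I presentation, 5 were 2-fold higher, against 1.31% of all genes, at a median of 0.66. PSMB9 of the immunoproteasome stood at 2.34 and its regulator NLRC5 at 2.26. The peptide transporter TAP1 stood at 1.60, the trimming peptidase ERAP2 at 1.26 and HLA-E at 1.06. PSMB9 was under 1 CPM in WT and passed the filter through K700E alone. Genes of NF-kB signalling showed no 2-fold difference among 14 measured, at a median of 0.18.

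The promoters of these genes were searched for a motif known from interferon responses. The interferon-stimulated response element was searched as GAAA, 2 bases of any kind and GAAA again, on both strands, in the 250 bases before to 50 after each start in RefSeq (GRCh38.p14), where overlapping matches can occur. It was present in 21 of 37 measured interferon-stimulated genes with an entry (56.8%) and in 5 of 9 of the 15 highest genes (55.6%), against 1255 of 35116 promoters in all (3.57%). Of the protein-coding genes 2-fold higher in K700E, 36 of 91 with an entry had it (39.6%). Of those 2-fold lower 0 of 17 had it, which says only that these letters are not in those windows. The sets of higher genes overlap and hold many genes already known for this response, so these shares are a description only. Each set counts a single promoter per gene, while the 35116 count every promoter entry. Stretches upstream of the start of IFIT1, IFIT3 and ISG15, a ubiquitin-like modifier with a log2 ratio of 4.40, are shown as examples of members with a pair of matches, the capitals marking the matches on either strand.
IFIT1, chr10:89392467-89392569, plus strand: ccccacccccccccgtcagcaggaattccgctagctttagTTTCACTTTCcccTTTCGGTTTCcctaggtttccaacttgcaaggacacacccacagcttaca
IFIT3, chr10:89327801-89327924, plus strand: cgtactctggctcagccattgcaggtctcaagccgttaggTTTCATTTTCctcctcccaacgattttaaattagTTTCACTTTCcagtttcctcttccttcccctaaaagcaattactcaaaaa
ISG15, chr1:1013344-1013439, plus strand: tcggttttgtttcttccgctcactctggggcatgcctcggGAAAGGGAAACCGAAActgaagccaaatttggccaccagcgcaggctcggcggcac

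In lists of stress and growth signals few genes were 2-fold apart. Over all genes measured, 1.31% were 2-fold higher and 0.455% lower. Of 18 immediate early genes, 2 were 2-fold higher, EGR1 at 1.32 (38.08 CPM in K700E, 34.58 in R625H, 45.38 in K666T and 15.2 in WT) and FOS at 1.13, and the list's median was 0.38, with 16 of 18 above 0. The integrated stress response list had a median of 0.37 with 2 of 15 genes 2-fold higher: FGF21, a secreted stress hormone, at 2.33 with 278 reads in K700E, 139 in R625H, 297 in K666T and 52 in WT, and PPP1R15A, the GADD34 subunit that reverses the response, at 1.38. In these 4 genes all 3 mutants were above WT. FGF21 was under 1 CPM in WT and passed the filter through K700E alone, so the count of its list depends on the filter. Heat shock genes lay on both sides, HSPA6, an inducible chaperone, at 1.02 and HSPE1, the mitochondrial co-chaperone, at -1.26, around a median of 0.07.

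**Figure D5:**
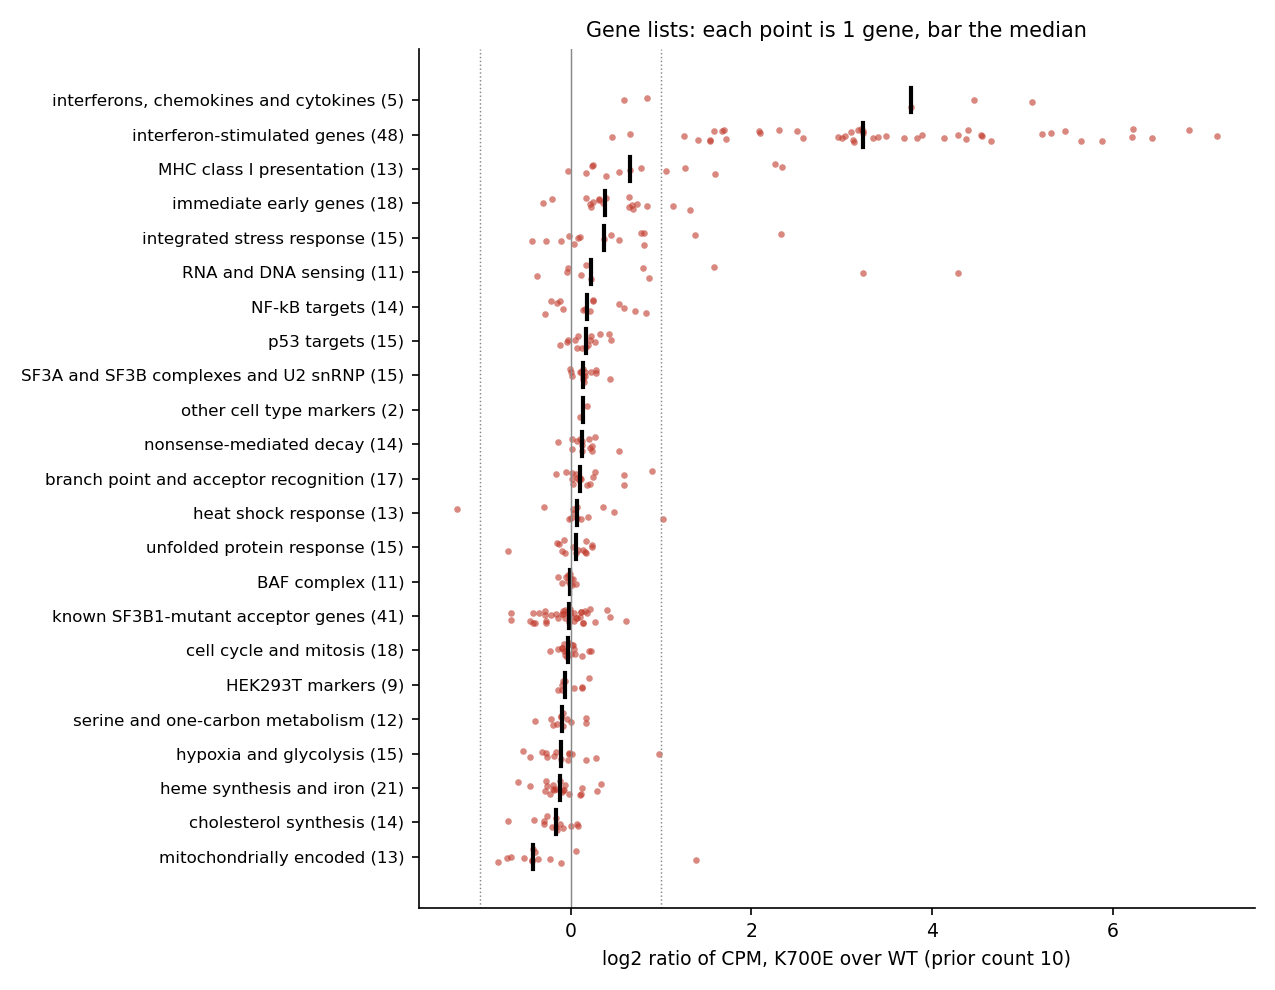
Log2 ratio of CPM in K700E over WT (x axis) for each measured member of the gene lists (y axis, number measured in brackets), 1 point a gene; bars are list medians and dotted lines mark 2-fold. The interferon-stimulated genes lie to the right with a median of 3.23, and lists of splicing, cell cycle, cholesterol and heme genes are centred near 0.

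Lists of the splicing machinery and of processes linked to SF3B1 mutation had no member at 2-fold. SF3A, SF3B and U2 snRNP genes had a median log2 ratio of 0.14, with SF3B1 at 0.02, and genes of branch point and acceptor recognition 0.10, with SUGP1, a partner of SF3B1 whose loss is known to give like acceptors, the highest at 0.90 (72.45 CPM in K700E, 63.16 in R625H, 66.45 in K666T and 38.89 in WT). Nonsense-mediated decay genes had a median of 0.13. Heme synthesis and iron genes had a median of -0.12, serine and one-carbon metabolism -0.10, the BAF complex -0.01 and the known acceptor genes -0.02. The unfolded protein response (0.06), p53 targets (0.17), the cell cycle (-0.03), hypoxia and glycolysis (-0.11) and cholesterol synthesis (-0.16) were likewise without a 2-fold member.

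Mitochondrially encoded transcripts parted by strand. MT-ND6, the only protein gene encoded on the light strand, had 669.6 CPM in K700E, 257.5 in R625H, 255.9 in K666T and 255.5 in WT, a log2 ratio of 1.39. The other 12 protein genes had log2 ratios of K700E over WT between -0.80 (MT-CYB) and 0.06, and the list's median was -0.42. For R625H over WT the list's median was 0.08 and for K666T over WT -0.09. MT-CO1, of the heavy strand, had 8167.4 CPM in K700E, 11209.7 in R625H, 10198.1 in K666T and 10972.1 in WT, so that K700E stood apart from the other 3 libraries in both genes.

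The protein-coding genes with the lowest ratios were short. C4orf48, a small secreted protein, had 2.951 CPM in K700E, 6.212 in R625H, 4.526 in K666T and 8.104 in WT, a log2 ratio of -1.42. PDF, a mitochondrial peptide deformylase, PPP1R3G, a glycogen-targeting phosphatase subunit, PCSK1N, an inhibitor of a prohormone convertase, CCDC85B, MRPL12, of the mitochondrial ribosome, HSPE1, BLOC1S1, of lysosome-related organelles, TMEM160 and CFD, the complement factor D, followed at -1.35 to -1.15. HSPE1 had 16.46 CPM in K700E, 39.2 in R625H, 35.94 in K666T and 39.56 in WT. The 21 protein-coding genes 2-fold lower had a median length of 1050 nt, against 3534 nt for all and 2959 nt for those 2-fold higher. Of the 21, 9 (42.9%) were under 1000 nt, against 3.08% of all, and 20 were among the shortest 3187 genes. Those 3187 genes also held 40 that were 2-fold higher, at a median log2 ratio of -0.03 over all of them, and of the 127 genes 2-fold higher that had a length, 13 (10.2%) were under 1000 nt. The part of length in these ratios was not tested.

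Other classes of RNA differed as well. Of the 67 genes 2-fold lower (0.455% of all measured), 34 were processed pseudogenes. The 189 processed pseudogenes measured had a median log2 ratio of -0.35 for K700E, -0.11 for R625H and -0.15 for K666T, each over WT. Reads of a processed pseudogene and its parent can be hard to tell apart, so these are uncertain. Small nucleolar RNA genes had 7 of 19 measured members 2-fold higher, against 1.31% of all genes, in libraries made from poly(A) RNA. Their median was 0.63 for K700E, 0.31 for R625H and 0.24 for K666T. Small nuclear RNA genes had 10 of 11, at medians of 1.52, 0.85 and 0.54 in the same order. Of those 2-fold higher, all but SNORD125 and RNVU1-34 were under 1 CPM in WT and were measured only through K700E. These counts thus depend on the filter.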

How the data were processed

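For each of the 4 libraries the authors deposited a table of raw counts by gene and another by splice junction, from RNA made with a TruSeq stranded mRNA kit and read as 100-bp pairs, per the labels' protocols. STAR 2.5.3a, HTSeq and the genome build hg19 are named, per the submitters' processing notes; no source used here gives their roles, other settings or the annotation. Deposited junction files also hold the longest overhang of a read, which was not used. From each gene file, column 4 was taken, the strand the kit reads; the other strand held 5.72 to 5.97% of reads. The 4 rows that name no gene (28.4% of pairs in K700E, 28.7% in R625H, 29.5% in K666T and 21.9% in WT) stayed out of library sizes.

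Junctions were tied to genes by fitting intron lengths and order of GENCODE 29 (GRCh38) to the hg19 junctions, because nearly all junctions are marked annotated in the files; 16112 of 18211 protein-coding genes were fitted, and 32 genes when searched on a wrong chromosome. Pairs and exons needed 20 uniquely mapped reads in each library and annotated donor and downstream acceptor, or annotated exon ends. Inclusion is the mean of the 2 inclusion junctions over that mean plus skipping. Shares were compared by two-sided Fisher's exact tests with Benjamini-Hochberg adjustment over the class, and intervals are Wilson's. PCR duplicates are not marked, so intervals and limits, the latter 3 reads over the pair's total, cover counting error only. Gene ratios used CPM and a prior count of 10, with no count model since each vector had 1 library. Only the calling of acceptor pairs was tried on simulated reads, and the gene ratios were not.

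Named by rule were the 12 largest rises and 6 largest falls of acceptor pairs, all called pairs of the known-gene list, the 8 largest cassette changes each way, the 15 highest and 10 lowest genes, up to 5 list members past 2-fold, and up to 8 pairs in the direct comparison; others are said to be chosen after their values. The comparison, the gene lists and the tests were chosen with earlier results of these data known. Used were Python 3.11.15, numpy 2.4.6, pandas 2.3.3, scipy 1.17.1, matplotlib 3.10.9, R 4.3.3, edgeR 4.0.16 for its TMM scaling and DESeq2 1.42.0 for its size factors, the last 2 as alternatives. Other alternatives changed the read minimum, the size limit, multi-mapped reads, annotation limits, the CPM filter, the prior count and the strand. Some genes that the rules or the choices above would name are not reported here.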

Additional observations from a re-analysis of the deposited data

Results flagged for a closer look

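The 8 largest differences between K700E and another mutant, at acceptor pairs where K700E also differed from WT, are given here because Fisher's exact test of the difference between those mutant libraries passed. RIDA had a share 80.14 points higher in K700E than in R625H and 80.14 points higher than in K666T, both of which were at 0 of 46 reads. ATP5MC1 was 78.77, NPM1 77.24 and UBE2S 65.82 points higher in K700E than in K666T. ZNHIT3 was 57.14 points higher in K700E than in R625H. RPS3 was lower in K700E than in R625H, by -57.53 points, and USF2, a helix-loop-helix transcription factor with 0 of 36 reads in K700E, was lower than in K666T, by -56.41 points. Each of the 8 differences had 1 library at 0, and each pair carried under 10% of the reads of its gene's most-read junction, between 0.18 and 9.41%. What sets these sites to 0 in some libraries was not tested.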

How the results depend on the processing

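No paired analysis was possible because each vector had 1 library and the labels carry no replicate numbers. No single difference changed sign, but the balance of rises and falls turned over in some classes: without annotation limits at pairs 3 to 9 and 31 to 100 nt apart, with multi-mapped reads at donors, and at 20 points against K666T; at donors it was even at 50 reads and at 20 points. Over the settings tried, 172 values of the comparisons stayed within their limits (counts within 1.5 times) and 53 moved; of further ones chosen after seeing the data, 11 stayed and 1 moved. Acceptor pairs 10 to 30 nt apart (81 rises, 23 falls) had 13 falls at 50 reads, 32 rises and 15 falls at 20 points, 147 and 44 with multi-mapped reads, 290 and 201 without annotation limits, 14 falls with both sites read, and 11 falls on well-read junctions (added). Pairs 3 to 9 nt apart (16 and 11) had 10 rises at 50 reads, 9 and 7 at 20 points, 136 and 143 without annotation limits, and 8 and 4 with both sites read. Pairs 31 to 100 nt apart (59 and 34) had 18 falls at 50 reads, 36 rises at 20 points, 126 and 83 with multi-mapped reads, 332 and 350 without annotation limits, and 39 and 16 with both read. Donors (9 and 11) had 7 falls at 50 reads, 6 falls at 20 points, 52 and 49 with multi-mapped reads, 27 and 28 without annotation limits, and 2 and 6 with both read. Cassette exons (44 and 196) had 19 and 39 at 20 points, 401 and 1140 with multi-mapped reads, and 390 and 1119 without annotation limits. Pooled shares in K700E and WT were 0.218 and 0.111% at 50 reads, 0.239 and 0.125% at 10 reads, 0.518 and 0.338% with multi-mapped reads, and 1.31 and 1.12% without annotation limits, with K700E above WT in each. Against R625H, 10 pairs were higher at 50 reads and 17 lower at 20 points; against K666T (16 higher, 19 lower), 12 were higher and 10 lower at 20 points. Genes (193 and 67) came to 394 and 138 without a filter and 90 and 23 at 5 CPM; the SF3A and SF3B list had a median of 0.10 with DESeq2 size factors. Of the named pairs and exons 290 values stayed and 11 fell under a 20-point limit; of the named genes 143 stayed and 3 moved, XAF1 to 7.37 and MX2 to 6.31 with a prior count of 1, and TMEM160 to -1.03 unstranded. The causes of these moves were not tested, beyond the fewer or more sites each setting keeps. Depth limits pairs near 20 reads most, where a count of 0 still allows a share of 12.5%, as at ZNF530.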
